A study of Mus musculus with 10 samples.

Results

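The 8 genes described here encode transcription factors that mark and pattern the mesenchyme of the limb bud: Prrx1, Prrx2, Twist1, Twist2, Lhx2, Lhx9, Lmx1b and Shox2. They were taken by name, with no measured value in the rule, and all 8 were found among the 47729 genes of the deposited count table and passed the filter on low counts. RNA was measured in 10 libraries of mouse forelimb buds at stages E11.5 to E12 (days of embryonic development). Of these, 5 were labelled as controls and 5 as a conditional knockout of Cxxc1. Cxxc1 encodes CFP1, a protein that binds unmethylated CG dinucleotides and recruits a complex that methylates histone H3 at lysine 4. All knockout embryos were labelled Prx1Cre_+-Cxxc1fl_fl, that is, with the Cre transgene and floxed Cxxc1 on both chromosomes. Control 1 was Prx1Cre_+-Cxxc1fl_wt, controls 2 and 4 were CreWT-Cxxc1fl_WT, control 3 was CreWT-Cxxc1fl_fl, and control 5 was Prx1Cre?-Cxxc1fl_fl, so all 5 controls carried a floxed allele and a question mark in the label of control 5 leaves its Cre transgene uncertain. Prx1Cre takes its regulatory sequence from Prrx1 itself, also called Prx1, and is active in limb bud mesenchyme and not in ectoderm, blood cells or incoming muscle precursors. Embryos came from 4 breeding pairs: litter A gave controls 1 and 2 and knockouts 1 and 2, and litters B, C and D gave control and knockout 3, 4 and 5 in turn. Somite stages, an index of embryo age, were 50.2 ± 0.84 (SD, n = 5) in controls and 50.0 ± 1.0 in knockouts.

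Libraries held 33274855 to 49881126 counts. Levels are CPM (read counts scaled to a common library size), with means ± SD over the 5 libraries of a group. Differences are log2 ratios, knockout over control, many of them followed by a standard error (SE). Cxxc1 itself was at 91.4, 95.4, 105.8, 101.6 and 89.5 CPM in controls 1 to 5, and at 75.1, 75.8, 76.2, 75.8 and 73.1 CPM in knockouts 1 to 5. The groups did not overlap, and the difference of -0.36 (SE 0.05) passed the test (edgeR quasi-likelihood, adjusted p = 0.000144). The sources used here do not say whether the counted exons lie within the floxed segment. Mesenchyme markers were abundant, and the hindlimb genes Tbx4 and Pitx1 summed to 10.7 to 13.9 CPM in controls and 10.8 to 15.3 CPM in knockouts, with neither passing the test.

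Several lists of cell type markers moved with the knockout, beside 35.2% of the 20562 tested genes that passed in either direction. The share of calls in the Schwann and neural crest list and in the neuronal list did not exceed that. Of 9 mesenchyme markers 8 were lower, and their summed level went from 2490 to 3240 CPM in controls to 1430 to 1570 CPM in knockouts. All 11 macrophage markers were higher, with sums of 61.3 to 75.4 CPM in controls and 220 to 261 CPM in knockouts. Of 10 ectoderm markers 6 were higher (300 to 496 CPM in controls, 538 to 643 CPM in knockouts), of 7 muscle precursor markers 5 were higher (96.2 to 121 CPM, 111 to 204 CPM), and of 8 erythroid markers 7 were higher (2070 to 2410 CPM, 2440 to 5230 CPM). Of 8 endothelial markers 6 were higher and 1 lower (263 to 308 CPM, 311 to 359 CPM), while of 6 Schwann and neural crest markers 1 was higher and 1 lower (52.7 to 59.3 CPM, 52.9 to 61.5 CPM). Of 4 tested neuronal markers 1 was lower (20.1 to 26.7 CPM, 13.5 to 18.9 CPM), and 8 of 9 chondrogenic markers were lower (673 to 1180 CPM, 237 to 278 CPM). No listed marker was at 0 in all libraries. The part of these shifts in the results for the 8 factors was not tested, and in whole limb buds fewer cells of a type and less RNA per cell cannot be told apart.

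The 8 factors fall into 4 families with known work in the limb. Prrx1 and Prrx2 are paired-type homeodomain proteins of undifferentiated mesenchyme that act redundantly in skeletal growth. Twist1 and Twist2 are basic helix-loop-helix (bHLH) proteins that pair with widely expressed E proteins and bind E-boxes, and Twist1 is needed for limb bud outgrowth and the exchange of signals with the apical ridge. Lhx2, Lhx9 and Lmx1b are LIM-homeodomain proteins that work through the cofactor Ldb1: Lhx2 and Lhx9 relay signals between the FGFs of the ridge and SHH, and Lmx1b sets dorsal identity in answer to WNT7A from the dorsal ectoderm. Shox2, a relative of the human short stature gene SHOX, is needed for the skeleton of the upper limb segment.

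Because CFP1 binds CG dinucleotides, the stretches just before the transcription starts of 2 paralog pairs are shown with each CG in capitals. They are the 250 bases before the start in RefSeq (GRCm38.p6), 5′ to 3′ on the strand of the gene: chr12:33957421-33957670 (+) for Twist1, chr1:91801211-91801460 (+) for Twist2, chr2:38339031-38339280 (+) for the first start of Lhx2 and chr1:138842445-138842694 (-) for Lhx9. The Twist2 stretch also lies in an exon of Gm29100, a non-coding RNA read from the opposite strand.
Twist1: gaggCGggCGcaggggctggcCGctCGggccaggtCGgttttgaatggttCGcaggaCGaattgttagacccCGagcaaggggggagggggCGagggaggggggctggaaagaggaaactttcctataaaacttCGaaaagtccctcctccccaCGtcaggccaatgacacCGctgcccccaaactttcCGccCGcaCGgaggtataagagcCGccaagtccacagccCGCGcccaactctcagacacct
Twist2: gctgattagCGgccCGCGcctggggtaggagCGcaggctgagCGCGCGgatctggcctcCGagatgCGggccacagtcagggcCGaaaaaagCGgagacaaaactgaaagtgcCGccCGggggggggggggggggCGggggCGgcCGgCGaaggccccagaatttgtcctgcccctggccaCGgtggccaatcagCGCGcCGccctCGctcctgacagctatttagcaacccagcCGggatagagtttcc
Lhx2: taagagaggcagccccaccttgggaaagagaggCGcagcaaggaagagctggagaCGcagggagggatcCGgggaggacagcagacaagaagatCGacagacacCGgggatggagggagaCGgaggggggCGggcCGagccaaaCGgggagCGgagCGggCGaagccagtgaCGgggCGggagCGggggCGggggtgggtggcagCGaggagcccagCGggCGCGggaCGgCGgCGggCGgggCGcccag
Lhx9: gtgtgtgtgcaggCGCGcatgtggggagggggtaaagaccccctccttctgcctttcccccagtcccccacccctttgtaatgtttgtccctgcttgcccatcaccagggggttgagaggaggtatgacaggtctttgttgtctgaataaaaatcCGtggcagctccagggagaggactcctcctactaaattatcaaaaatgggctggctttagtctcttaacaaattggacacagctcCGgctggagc

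The Twist1 and Twist2 stretches held 18 and 23 CG, the Lhx2 stretch 25 and the Lhx9 stretch 4. Over all 32851 RefSeq stretches of this length the median was 6 CG, with quartiles of 2 and 16. Those of Prrx1, Prrx2, Lmx1b and Shox2 held 4, 21, 19 and 11 CG, and a second start of Lhx2 had 24. Of the 9 stretches of the 8 genes, 7 were above the median, and the exceptions were Prrx1 and Lhx9. The share of all stretches with fewer CG was 37.8% for both Prrx1 and Lhx9, 64.4% for Shox2, 78.3% for Twist1, 80.3% for Lmx1b, 83.7% for Prrx2, 86.7% for Twist2 and 89.3% for Lhx2. The Prrx1, Prrx2 and Lhx9 stretches and the second of Lhx2 lie before starts inside the annotated bounds of these genes. Their counts say nothing of starts further upstream. The Lmx1b stretch lies before a RefSeq start outside the annotated bounds of Lmx1b. It spans the annotated start of C130021I20Rik, a non-coding RNA on the opposite strand. The bases checked after that RefSeq start were found in no annotated transcript of Lmx1b, while those of the other stretches were found. On either strand, the E-box CANNTG was found in the stretches of Lhx9 and Lmx1b (66.2% of all stretches hold it), and the homeodomain core TAATTA in that of Prrx1 (4.8% of all stretches). These matches describe the letters alone, and neither binding nor methylation was measured.

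Of the 8 factors, 6 fell in the knockout and none rose, beside 35.2% of the 20562 tested genes that passed in either direction, 17.1% that were lower and 18.1% that were higher. Twist2, Lhx9, Prrx1, Shox2, Prrx2 and Lmx1b passed, and Twist1 and Lhx2 did not. The median log2 difference was -0.75 over the 8 factors and -0.001 over all tested genes. The lowest control lay above the highest knockout for the same 6 factors, and 25.3% of tested genes had groups that did not overlap in either direction. For those 6 the exact two-sided permutation test over libraries gave p = 0.00794, the smallest that 5 against 5 libraries allow. Counts behind these values ran from 663 (the lowest Twist2 library) to 28113 (the highest Prrx1 library), so counting error was small beside the spread between embryos.

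**Figure D1:**
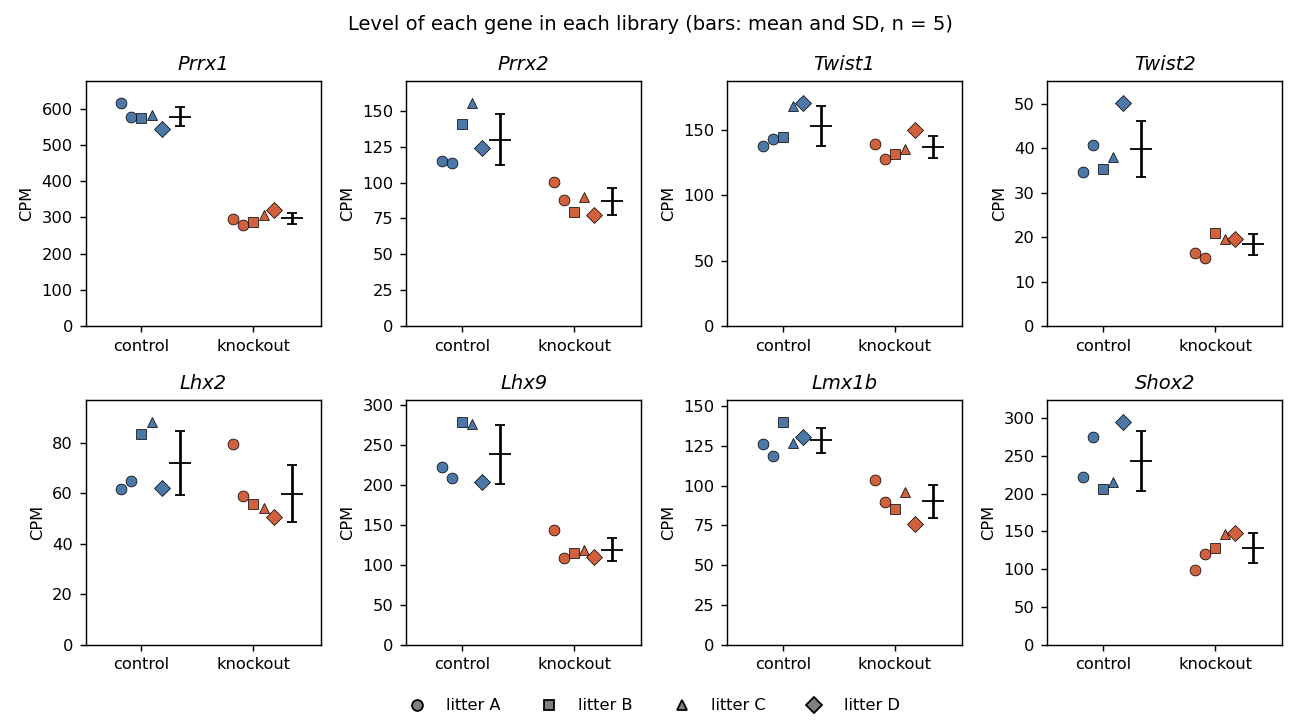
Level of each of the 8 factors in CPM (linear axis from 0) for every library, with a symbol per litter and bars for mean and SD (n = 5). Controls and knockouts stand apart for Prrx1, Prrx2, Twist2, Lhx9, Lmx1b and Shox2, and overlap for Twist1 and Lhx2.

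Prrx1 (ENSMUSG00000026586, chr1:163245119-163313710, minus strand, GRCm38, 7 merged exons) fell in the knockout. It was at 614.6, 576.8, 574.2, 582.3 and 542.8 CPM in controls 1 to 5 and at 294.3, 278.9, 287.0, 306.3 and 319.0 CPM in knockouts 1 to 5. Every knockout stood far below every control, and the coefficient of variation was 4.42% in controls and 5.34% in knockouts. The means were 578.1 ± 25.6 and 297.1 ± 15.9 CPM, so that knockouts kept 51.4% of the control level (log2 -0.96, SE 0.05, adjusted p = 4.95e-08). Control 1, the control whose label gives Prx1Cre without doubt, had the highest Prrx1 value of all libraries. Within litters A, B, C and D the difference was -1.06, -1.0, -0.93 and -0.77.

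Prrx2 (ENSMUSG00000039476, chr2:30834972-30881251, plus strand), the paralog of Prrx1, also fell. Controls 1 to 5 were at 115.3, 113.3, 141.0, 155.2 and 124.4 CPM and knockouts 1 to 5 at 100.6, 87.9, 79.2, 90.1 and 77.4 CPM. The highest knockout, from litter A, came close to the 2 controls of that litter, and no value crossed. Knockouts kept 67.0% of the control level (129.9 ± 17.9 and 87.0 ± 9.36 CPM; log2 -0.58, SE 0.10, adjusted p = 0.000589). The difference was -0.28 in litter A and -0.83, -0.78 and -0.69 in litters B, C and D.

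Twist1 (ENSMUSG00000035799, chr12:33957671-33959829, plus strand, 1 transcript with 2 exons) had values of 137.8, 143.5, 144.6, 168.4 and 170.5 CPM in controls 1 to 5 and 139.7, 127.7, 132.0, 135.4 and 150.4 CPM in knockouts 1 to 5. The groups overlapped, with knockouts 1 and 5 inside the control range. The means of 152.9 ± 15.3 and 137.0 ± 8.69 CPM differed by -0.16 (SE 0.07), which did not pass the test (adjusted p = 0.0943, exact permutation p = 0.0952). All 4 litters were lower, by values of -0.07, -0.13, -0.31 and -0.18 in A to D. With litter as a block in the model the difference was -0.15 and passed (adjusted p = 0.0334), and with the replicate number as a block it was -0.16 and did not (adjusted p = 0.0512), so the call for Twist1 turns on the block used.

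Twist2 (ENSMUSG00000007805, chr1:91801461-91848028, plus strand, 2 merged exons) had the lowest log2 value of the 8. It was at 34.7, 40.7, 35.4, 38.1 and 50.1 CPM in controls 1 to 5 and at 16.5, 15.2, 20.9, 19.5 and 19.7 CPM in knockouts 1 to 5. No knockout came near the lowest control, while control 5 stood above the other controls. The means were 39.8 ± 6.24 and 18.4 ± 2.37 CPM, a level of 46.1% of control (log2 -1.12, SE 0.11, adjusted p = 1.6e-05), and litters A to D gave -1.24, -0.76, -0.97 and -1.35. Gm29100, on the opposite strand, covers 46.5% of the exon bases of Twist2, and the sources used here do not say whether reads were assigned by strand. Gm29100 itself averaged 4.62 ± 0.301 CPM in controls against 4.47 ± 0.223 CPM in knockouts (log2 -0.05, SE 0.09, adjusted p = 0.735).

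Lhx2 (ENSMUSG00000000247, chr2:38339281-38369733, plus strand) had the widest spread for its difference. Controls 1 to 5 were at 61.6, 65.1, 83.5, 88.4 and 62.0 CPM and knockouts 1 to 5 at 79.5, 59.0, 55.8, 54.2 and 50.7 CPM. Knockout 1 lay above 3 of the 5 controls, and the other 4 knockouts lay below all controls. The means of 72.1 ± 12.8 and 59.8 ± 11.4 CPM differed by -0.27 (SE 0.14), which did not pass (adjusted p = 0.149, exact permutation p = 0.159). Litter A was higher in the knockout, at 0.11, and litters B, C and D were lower, at -0.58, -0.71 and -0.29. Without knockout 1 the difference was -0.39 (adjusted p = 0.0216), and without litter A it was -0.55 (adjusted p = 0.0206), so the call for Lhx2 rests on that litter.

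Lhx9 (ENSMUSG00000019230, chr1:138825186-138848577, minus strand) overlaps with Lhx2 in its limb role. Its levels were 222.4, 209.5, 279.5, 277.3 and 204.1 CPM in controls 1 to 5 and 143.6, 108.1, 114.4, 118.2 and 109.9 CPM in knockouts 1 to 5. Knockout 1 was again the highest knockout, but remained well below the lowest control. Knockouts kept 49.8% of the control level (238.5 ± 37.0 and 118.8 ± 14.4 CPM; log2 -1.01, SE 0.11, adjusted p = 2.16e-05), and litters A to D gave -0.79, -1.29, -1.23 and -0.89.

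Lmx1b (ENSMUSG00000038765, chr2:33560965-33640511, minus strand), the dorsal selector gene, fell as well. It was at 126.3, 118.7, 140.3, 126.8 and 130.7 CPM in controls 1 to 5 and at 103.7, 90.0, 85.2, 96.0 and 75.8 CPM in knockouts 1 to 5. All knockouts were below all controls, with litter A the closest. The means were 128.6 ± 7.88 and 90.1 ± 10.6 CPM, or 70.1% of control (log2 -0.51, SE 0.08, adjusted p = 0.000268), and litters A to D gave -0.34, -0.72, -0.40 and -0.79.

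The non-coding RNA C130021I20Rik starts 682 bases from the annotated start of Lmx1b, runs on the opposite strand and shares no exon bases with it. It was looked at because of this position, and its comparison with Lmx1b was added after its values were seen. It was at 204.7, 198.1, 232.6, 219.9 and 217.0 CPM in controls 1 to 5 and at 76.8, 68.8, 75.5, 76.0 and 62.2 CPM in knockouts 1 to 5. The groups were far apart, at 214.4 ± 13.5 and 71.9 ± 6.27 CPM (log2 -1.58, SE 0.07, adjusted p = 1.16e-08). The log2 ratio of Lmx1b to C130021I20Rik within a library went from -0.74 ± 0.04 in controls to 0.32 ± 0.10 in knockouts, a difference of 1.06 (SE 0.05, exact two-sided permutation p = 0.00794). The 2 neighbouring transcripts thus differed in their response by more than the spread between libraries.

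Shox2 (ENSMUSG00000027833, chr3:66971727-66981771, minus strand) was at 222.3, 274.9, 206.1, 214.9 and 295.0 CPM in controls 1 to 5 and at 98.9, 119.5, 128.1, 145.8 and 147.5 CPM in knockouts 1 to 5. The groups stood apart, and control values spread widely, with controls 2 and 5 the highest. Knockouts kept 52.7% of the control level (242.6 ± 39.7 and 128.0 ± 20.1 CPM; log2 -0.92, SE 0.12, adjusted p = 0.000135). Litters A to D gave -1.18, -0.69, -0.56 and -1.0. Rsrc1, which starts 381 bases away on the opposite strand and shares 4.6% of Shox2 exon bases, was at 74.5 ± 2.48 and 65.2 ± 5.23 CPM (log2 -0.19, SE 0.06, adjusted p = 0.0189), a call lost without litter A (-0.12, adjusted p = 0.201), without knockout 2 (-0.17, adjusted p = 0.0501) and with only the controls labelled without Cre (-0.18, adjusted p = 0.0819).

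**Figure D2:**
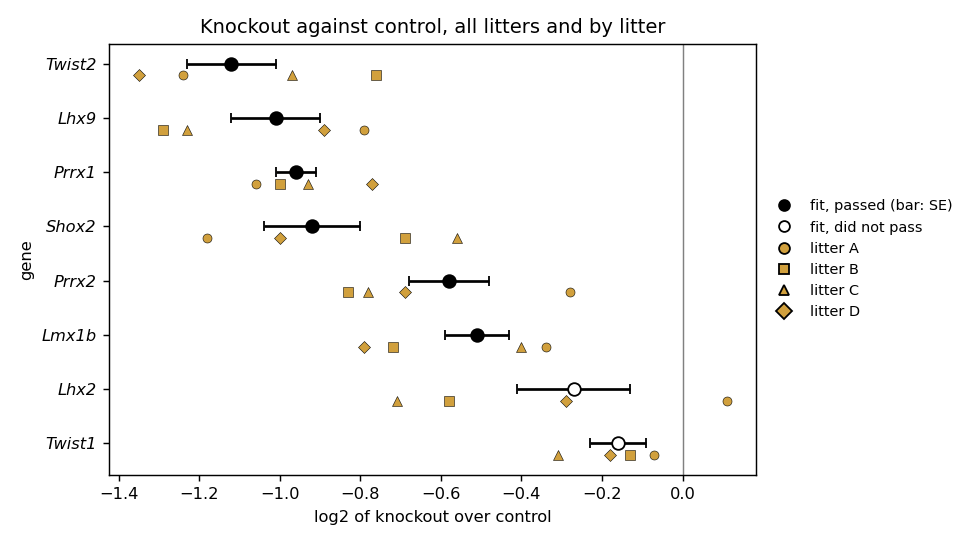
Log2 of knockout over control for each of the 8 factors: the larger circles are the fit over all 10 libraries (filled where the adjusted p passed, bars are SE) and the gold symbols are the difference within each litter. Litter differences lie below 0 for 7 factors in all 4 litters, and for Lhx2 the value of litter A is 0.11.

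Set among all tested genes, 1.97% had a lower log2 value than Twist2, 2.52% than Lhx9, 2.80% than Prrx1 and 3.08% than Shox2. The share was 7.57% for Prrx2 and 9.15% for Lmx1b, and 20.6% and 30.8% for Lhx2 and Twist1. Whether the 6 factors that passed differ in the size of their decrease was tested only for paralogs, below, and without litter A Prrx2 and Shox2 were both at -0.77. Litter A had the smallest decrease for Prrx2, Twist1, Lhx9 and Lmx1b, the largest for Prrx1 and Shox2, and a higher knockout value for Lhx2.

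The 3 paralog pairs allowed a comparison that needs no scaling between libraries, the log2 ratio of their counts within each library, with p-values adjusted over the 3 pairs. In 2 pairs 1 member fell and its paralog did not pass, and the ratio shifted in every litter. The Twist1 to Twist2 ratio was 1.99, 1.82, 2.03, 2.14 and 1.77 in controls 1 to 5 and 3.08, 3.07, 2.66, 2.80 and 2.93 in knockouts 1 to 5. The groups did not overlap, and the means of 1.95 ± 0.16 and 2.91 ± 0.18 differed by 0.96 (SE 0.11, exact two-sided permutation p = 0.00794, adjusted p = 0.0119), with 1.17, 0.63, 0.65 and 1.17 in litters A to D. Twist2 thus lost a larger share of its RNA than Twist1 in the same libraries.

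The Lhx2 to Lhx9 ratio was -1.85, -1.69, -1.74, -1.65 and -1.72 in controls 1 to 5 and -0.85, -0.87, -1.03, -1.13 and -1.12 in knockouts 1 to 5. Here too the groups did not overlap, and the spread was small although Lhx2 and Lhx9 each varied between litters. The means were -1.73 ± 0.08 and -1.0 ± 0.13, a difference of 0.73 (SE 0.07, exact permutation p = 0.00794, adjusted p = 0.0119), with 0.91, 0.71, 0.52 and 0.60 in litters A to D. Lhx9 thus fell relative to Lhx2 in every litter, including litter A, where Lhx2 itself was higher in the knockout.

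The Prrx1 to Prrx2 ratio was 2.41, 2.35, 2.03, 1.91 and 2.13 in controls 1 to 5 and 1.55, 1.67, 1.86, 1.77 and 2.04 in knockouts 1 to 5. The groups overlapped, and the means of 2.16 ± 0.21 and 1.78 ± 0.19 differed by -0.39 (SE 0.13, exact permutation p = 0.0238, adjusted p = 0.0238). Litter A gave -0.77 and litters B, C and D gave -0.17, -0.14 and -0.08. Without litter A the difference was -0.13, so most of the shift between Prrx1 and Prrx2 came from that litter. With 3 against 3 libraries the smallest possible p is 0.1, and the difference could not pass there.

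**Figure D3:**
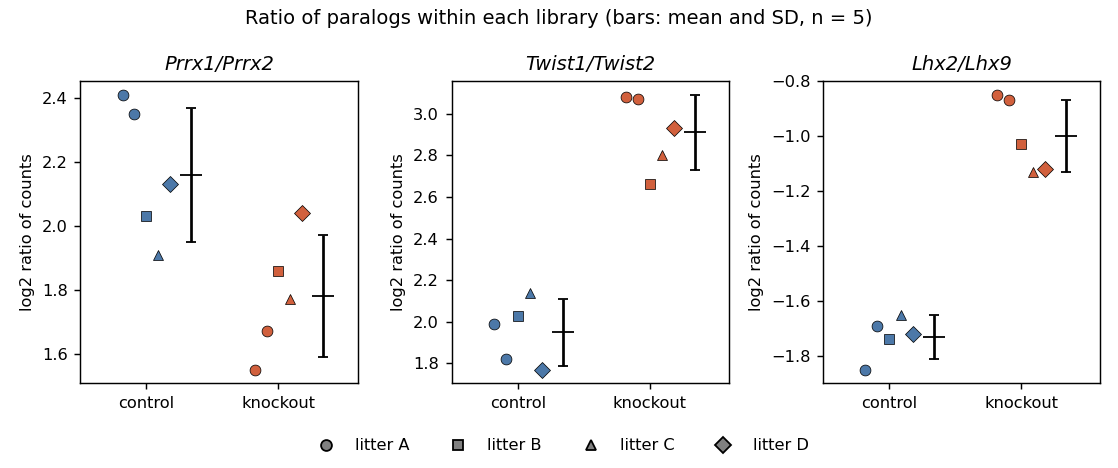
Log2 ratio of counts for the 3 paralog pairs in every library, with a symbol per litter and bars for mean and SD (n = 5); each panel has its own axis, which does not start at 0. Controls and knockouts stand apart for Twist1/Twist2 (1.77 to 2.14 against 2.66 to 3.08) and Lhx2/Lhx9 (-1.85 to -1.65 against -1.13 to -0.85) and overlap for Prrx1/Prrx2.

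Levels of different genes were compared only per length, as CPM per kb of merged exon. In controls the order was Twist1 (93.9 ± 9.39), Shox2 (73.3 ± 12.0), Prrx2 (66.2 ± 9.12), Prrx1 (52.2 ± 2.31), Lmx1b (26.3 ± 1.61), Lhx9 (25.1 ± 3.89), Lhx2 (16.4 ± 2.92) and Twist2 (12.5 ± 1.97). Ranges over libraries overlapped between Twist1 and Shox2, Shox2 and Prrx2, Lmx1b and Lhx9, and Lhx2 and Twist2, so those neighbours were not set apart. In knockouts the order was Twist1 (84.2 ± 5.34), Prrx2 (44.4 ± 4.77), Shox2 (38.7 ± 6.07), Prrx1 (26.8 ± 1.43), Lmx1b (18.5 ± 2.17), Lhx2 (13.6 ± 2.60), Lhx9 (12.5 ± 1.52) and Twist2 (5.78 ± 0.746). Twist1 stood clear of the other factors there, while Prrx2 overlapped Shox2, and Lhx2 overlapped both Lmx1b and Lhx9. The length chosen matters for Prrx1, whose 11066 merged exon bases exceed its longest transcript of 6527: per kb of longest transcript, Twist1 (93.9), Prrx2 (90.1), Prrx1 (88.6) and Shox2 (78.8) overlapped in controls, and in knockouts Lhx9 (24.1) was listed above Lhx2 (21.1).

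**Figure D4:**
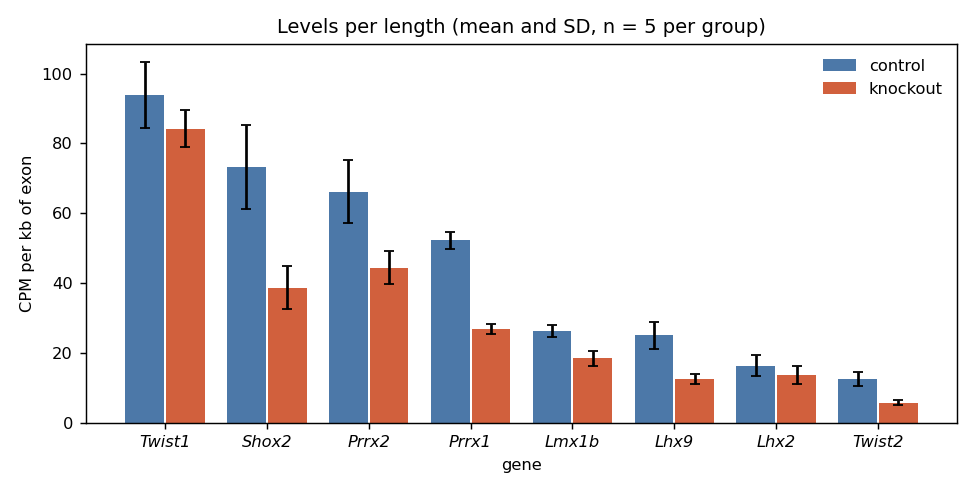
Level per length of the 8 factors, as mean CPM per kb of merged exon on a linear axis from 0, with SD bars (n = 5 per group). Twist1 is the highest in both groups, at 93.9 in controls and 84.2 in knockouts, and Twist2 the lowest, at 12.5 and 5.78.

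Summing paralogs per kb shows how much of each pair remained. Prrx1 and Prrx2 together went from 118.0 ± 9.09 to 71.2 ± 4.60 CPM per kb (60.1% of control), and Prrx1 made up 44.3% ± 3.64 of that sum in controls and 37.8% ± 3.08 in knockouts. Twist1 and Twist2 together went from 106.0 ± 10.8 to 89.9 ± 5.63 (84.5%), and Twist1 held 88.2% ± 1.12 of the sum in controls and 93.6% ± 0.76 in knockouts. The Twist sums overlapped between groups (lowest control 95.6, highest knockout 98.6), and the sums of the Prrx and Lhx pairs did not. Lhx2 and Lhx9 together went from 41.5 ± 6.74 to 26.1 ± 4.03 (62.9%), and the share of Lhx2 went from 39.5% ± 1.26 to 51.9% ± 2.27. With the longest transcript as length, the share of Lhx2 was 34.4% and 46.5% and that of Prrx1 49.7% and 43.1%. Both shares moved the same way under either length, and the length decided which of Lhx2 and Lhx9 was the larger in knockouts alone.

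The genes whose profiles lay nearest to each factor were found by the root mean square difference of log2 CPM over the 10 libraries, after the control mean of each gene was subtracted, among 9727 genes with at least 10 CPM in controls. Because the knockout difference is part of this measure, genes with a like difference come out near each other. Nearest to Prrx1 were Cpe (0.056), Mdk (0.077) and Gulp1 (0.091), and nearest to Prrx2 were Cbln1 (0.081), Sept5 (0.111) and Lmx1b (0.118). Twist1 had Anxa2 (0.054), Pkm (0.055) and Igf2bp2 (0.061), and Twist2 had Pth1r (0.099), S1pr3 (0.124) and Cadm4 (0.133). Lhx2 had Tspan18 (0.103) and Ets2 (0.122) among its nearest 3, and Lhx9 had Fbln5 (0.136), Hoxd12 (0.15) and Caskin1 (0.165). Lmx1b had Sept5 (0.066), Galt (0.081) and Mypop (0.083), and Shox2 had H19 (0.122), Ednra (0.127) and Cplx2 (0.127). Among the 8 factors themselves, Prrx2 and Lmx1b lay closest (0.12), and Twist2 lay farthest from its own paralog Twist1 and from Lhx2 (0.69 each).

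Other genes of the pathways in which the 8 factors work are described by lists chosen with results of these data known, so their counts are no independent evidence of a direction. Of 34 regulators of the limb field and its outgrowth, 14 were lower, 4 were higher and 16 did not pass, with a median log2 difference of -0.20. Tbx5, which starts the forelimb bud, went from 187.6 ± 20.7 to 88.0 ± 9.95 CPM (-1.09, SE 0.09, adjusted p = 2.79e-06). Pdgfra, a growth factor receptor of mesenchyme, went from 492.6 ± 45.4 to 135.1 ± 5.27 CPM (-1.87, SE 0.07, adjusted p = 2.56e-09), and the paired-box gene Pax9 fell by 3.13 (SE 0.23). Hand2, which acts upstream of Shh in the posterior limb bud, averaged 173.4 ± 15.9 CPM in controls against 149.6 ± 16.3 CPM, a difference that did not pass (-0.21, SE 0.08, adjusted p = 0.0569). Hand2 passed without litter A (-0.35, adjusted p = 0.031), without control 3 (-0.25, adjusted p = 0.0352), without knockout 1 (-0.25, adjusted p = 0.0428) and without knockout 2 (-0.26, adjusted p = 0.0257). It also passed with somite stage as a term (-0.22, adjusted p = 0.0467) and with DESeq2 (-0.21, adjusted p = 0.0489).

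Among the relatives of each family, members went in both directions. Of 11 tested paired-type homeobox relatives of Prrx1, 4 were lower and 3 higher (median -0.37): Pax9 and Alx4 (-0.85, SE 0.25, adjusted p = 0.0183) fell, and Pax3 (2.06, SE 0.21), a marker of muscle precursors, rose. The Alx4 call was lost without litter A (-0.44, adjusted p = 0.0696). Of 7 tested bHLH relatives of Twist1, Hand1 (-2.72, SE 0.61) and the tendon factor Scx (-1.20, SE 0.13) fell, and Tal1 (0.73, SE 0.18), a factor of blood formation, and Tcf15 (1.05) rose. Without litter A the Tal1 difference was 0.61 (adjusted p = 0.103). Of 7 tested LIM-homeodomain relatives, 4 were higher and 1 lower (median 0.75), among them Isl1, which went from 1.83 ± 0.526 to 7.15 ± 1.82 CPM (1.96, SE 0.22, adjusted p = 3.54e-05). Lhx8 (2.23) and Lhx1 (-1.71) also passed at low levels (0.129 and 0.614 CPM for Lhx8, 1.04 and 0.325 CPM for Lhx1), and both calls were lost without litter A, where 2 genes of this list passed and not 5.

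The partners through which the factors work did not move as a block. Of 12 LIM-domain cofactors and regulators, 5 were lower and 1 higher (median -0.05). Ldb1, the main cofactor of LIM-homeodomain proteins, averaged 300.5 ± 8.89 CPM in controls against 293.4 ± 9.59 CPM, a difference that did not pass (-0.03, SE 0.04, adjusted p = 0.539). Its relative Ldb2 went from 40.5 ± 5.28 to 13.9 ± 1.69 CPM (-1.54, SE 0.11, adjusted p = 7.95e-07), and Csrp2 (-0.66, SE 0.05) and Ssbp2 (-0.48, SE 0.07) also fell. Of 10 bHLH partners and inhibitors, 4 were lower and 1 higher (median -0.21). The E proteins Tcf4 (-0.72, SE 0.09, adjusted p = 5.73e-05) and Tcf3 (-0.22, SE 0.05, adjusted p = 0.00436) fell, and Tcf12 averaged 500.1 ± 52.3 CPM in controls against 434.1 ± 50.5 CPM, a difference that did not pass (-0.20, SE 0.09, adjusted p = 0.09), though it passed without knockout 5 (-0.27, adjusted p = 0.0245) and with the litter block or the number block (-0.21 each, adjusted p = 0.0152 and 0.0226). Of the inhibitors, Id4 (-1.10, SE 0.15) and Id1 (-0.55, SE 0.08) fell, and Id2 (0.05, adjusted p = 0.474) and Id3 (-0.11, adjusted p = 0.38) did not pass. Hes1 of this list rose (0.29, adjusted p = 0.00302).

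**Figure D5:**
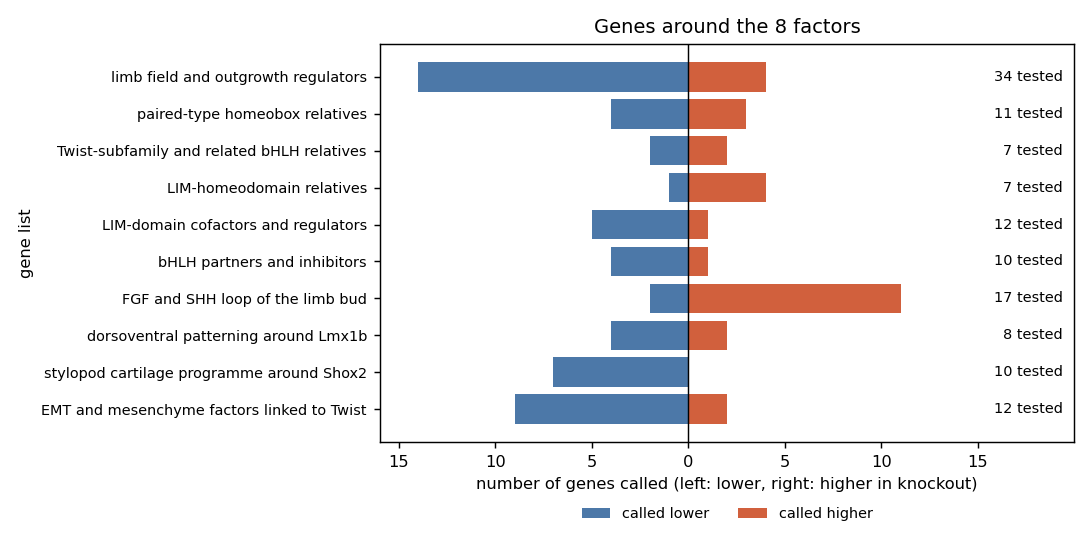
Number of genes called lower (left) or higher (right) in the knockout at an adjusted p under 0.05 in each of 10 lists of pathway genes around the 8 factors, with the number tested at the right. The FGF and SHH list has 11 higher and 2 lower calls, and the lists around Shox2 and Twist have 7 and 9 lower and 0 and 2 higher calls.

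The FGF and SHH loop, which Twist1, Lhx2 and Lhx9 serve, went largely the other way. Of 17 genes 11 were higher, 2 were lower and 4 did not pass (median 0.53). The ridge signal Fgf8 went from 12.2 ± 4.59 to 25.8 ± 2.44 CPM (1.07, SE 0.21, adjusted p = 0.00154), and Shh from 3.75 ± 1.73 to 8.74 ± 1.35 CPM (1.22, SE 0.29, adjusted p = 0.00564). The FGF-responsive genes Etv4 (1.31, SE 0.10) and Dusp6 (0.53, SE 0.07) and the ligand Fgf9 (0.71, SE 0.11) rose too. Fgf10, the mesenchymal ligand of the loop, was at 30.6 and 30.9 CPM (0.01, adjusted p = 0.939), and Grem1, which links SHH to the ridge, was at 50.1 and 55.7 CPM (0.15, adjusted p = 0.341). Ectoderm markers, Fgf8 among them, were higher in the same libraries, and without litter A the calls in this list fell from 13 to 7, with Fgf8 at 0.82 (adjusted p = 0.0502) and Shh at 1.21 (adjusted p = 0.0920).

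Around Lmx1b, 4 of 8 genes of dorsoventral patterning were lower and 2 higher (median -0.53). Wnt7a, the dorsal ectodermal signal upstream of Lmx1b, averaged 11.47 ± 2.74 CPM in controls against 12.4 ± 2.07 CPM, a difference that did not pass (0.11, SE 0.16, adjusted p = 0.651). En1, the ventral ectodermal factor, went from 8.002 ± 1.32 to 10.8 ± 1.41 CPM (0.43, SE 0.13, adjusted p = 0.0194), a call lost without litter A (0.21, adjusted p = 0.403) and without knockout 2 (0.38, adjusted p = 0.0507). Kera and Lum, small proteoglycans of connective tissue, fell by 3.10 (SE 0.28) and 2.05 (SE 0.22), and Rspo2, an enhancer of WNT signalling, rose (0.85, SE 0.13).

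Around Shox2, 7 of 10 tested genes of the early cartilage programme were lower and none was higher (median -0.97). Sox9, the chondrogenic master factor, went from 115.9 ± 29.6 to 19.3 ± 3.65 CPM (-2.59, SE 0.18), Acan fell by 3.95 (SE 0.19) and Col2a1 by 2.08 (SE 0.13). Runx2, which drives hypertrophy and bone formation, averaged 9.87 ± 3.24 CPM in controls against 12.8 ± 3.32 CPM, a difference that did not pass (0.37, SE 0.24, adjusted p = 0.262). Of 12 mesenchyme genes linked to Twist and the epithelial to mesenchymal transition, 9 were lower and 2 higher (median -0.70). Foxc1 (-2.54, SE 0.20), Cdh11, the mesenchymal cadherin (-0.73, SE 0.06), and Fn1, fibronectin (-0.70, SE 0.05), fell.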

How the data were processed

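RNA from whole forelimb buds was extracted with a Direct-zol kit and made into libraries with a TruSeq RNA kit, per the labels' protocols. The main table holds estimated counts per Ensembl gene, deposited by the authors. The submitters' processing notes name Salmon 0.8.2, R 3.4.1, DESeq2 1.16.1 and mm10 with no role for each, and the sources used here do not say how reads were assigned to strand. Of the estimated counts above 0, 0.059% were whole within 1e-06, and all were rounded. A second deposited table, named as FPKM, holds a signal equal to the rounded count over a factor of each library (100.0% of values within 0.01), and served only as an alternative. Symbols and positions came from GENCODE M21 (GRCm38), which named 47224 of 47729 genes, and sequences from RefSeq. Protein sequences were not used here.

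Genes were filtered with filterByExpr (minimum count 10, total 15), given TMM factors and fitted in R 4.3.3 with edgeR 4.0.16 (glmQLFit, glmQLFTest) for the contrast of knockout and control without covariates. The SE of a gene is its absolute log2 ratio over the square root of the F statistic of that test. The SE of a difference between ratios comes from the variances of the groups. Adjustment was by Benjamini-Hochberg across the 20562 genes, with a threshold of 0.05. The biological coefficient of variation was 16.4%. The fit was first run on simulated counts with far fewer changed genes than passed here. That run could not test the scaling under changes this wide. A floor of 3 counts is 0.0601 to 0.0902 CPM per library. Paralog ratios used a prior count of 0.5 and exact two-sided permutation tests over libraries. The labels give each library a somite stage and genotype of its own and no extraction batch. Within groups libraries differed by more than counting noise (chi-square per degree of freedom 17.52 to 49.61), and Xist was above 1000 CPM in 2 libraries, 1 per group. The labels pair the samples by litter. Deviations from group means correlated over genes at -0.01, 0.16, -0.02, 0.04 and 0.20 for controls and knockouts 1 to 5. In litter A, control 1 with knockout 2 gave 0.0 and control 2 with knockout 1 gave -0.04. Pairs from other litters gave -0.20 to 0.07, and only the pairs numbered 2 and 5 lay above that range.

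Alternatives were DESeq2 1.42.0, limma 3.58.1, scaling by library size, the normalised table, other filters, blocks of litter or number, and leaving out libraries or litter A. Named genes are the 8 factors, a fixed set of 16 partners and pathway genes, up to 3 genes with the smallest adjusted p per list, and the 3 nearest profiles per factor; 2 genes under this rule are not reported here. C130021I20Rik, Gm29100, Rsrc1, Tcf15, Id2, Id3, Hes1, Gm37644, Gm27197, Gm26523, Gm29101 and Gm13584 were named outside that rule after their values were seen. The 8 factors and all lists were chosen with earlier results of these data known.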

Additional observations from a re-analysis of the deposited data

Results flagged for a closer look

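In 150 groups of 5 libraries checked, 1 library stood apart from the other 4 by Dixon's criterion in 6, and chance alone gives about 1 in 20. Among the 8 factors this was knockout 1 for Lhx9, at 143.6 CPM beside 108.1 to 118.2 CPM in the other knockouts. Knockout 1 also stood apart for Dusp6 (231.6 CPM beside 203.7 to 211.3). Pdgfra was low in control 4 (412.6 CPM beside 505.1 to 525.2) and in knockout 2 (125.9 CPM beside 135.7 to 138.4). Etv4 was high in control 4 (69.3 CPM beside 47.6 to 52.0) and Id4 in control 3 (7.76 CPM beside 4.80 to 5.55).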

How the results depend on the processing

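Over all alternatives, 6 or 7 of the 8 factors were called lower and 0 higher. Log2 differences ranged from -0.99 to -0.90 for Prrx1, -0.77 to -0.51 for Prrx2, -1.21 to -1.02 for Twist2, -1.15 to -0.94 for Lhx9, -0.63 to -0.46 for Lmx1b and -0.98 to -0.77 for Shox2. Twist1 (-0.21 to -0.11) passed with a litter block (-0.15), and the replicate block by number left it at -0.16 (adjusted p = 0.0512). Lhx2 was at -0.55 without litter A and from -0.39 to -0.19 with single libraries left out, and passed without litter A or knockout 1. Without litter A, 4023 genes were called, 2002 higher and 2021 lower. The ratio differences were then -0.13 for Prrx1/Prrx2, 0.82 for Twist1/Twist2 and 0.61 for Lhx2/Lhx9 (adjusted p = 0.3, 0.15 and 0.15 by exact permutation, where the smallest raw p is 0.1). With the 3 controls labelled without Cre alone they were -0.32, 0.91 and 0.69 (adjusted p = 0.107, 0.0536 and 0.0536, where the smallest raw p is 0.0357). Without control 1 and knockout 3 the Prrx1/Prrx2 difference was -0.35 (adjusted p = 0.0857). A filter at 10 CPM left 2449 genes called higher. The litter block gave 7314 calls and the number block 6850. Scaling by library size moved the median of all genes to 0.051 and the share of calls that were higher from 51.3% to 62.2%, with 6 factors lower. Of the other values for the factors, pairs and counts, 302 were classed as unchanged, and none reversed. That class takes in the Twist1/Twist2 difference without litter A, which did not pass. With the 3 controls labelled without Cre the calls for Alx4 (adjusted p = 0.0651) and En1 (adjusted p = 0.0541) were lost.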

Other observations

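Hox genes of the forelimb, chosen for mention after their values were seen, did not move as a group. Hoxd12, expressed in the distal and posterior bud, fell by 1.06, and Hoxd9 by 0.64, while Hoxd10 (-0.02), Hoxd11 (0.12) and Hoxd13 (-0.10) between and beside them did not pass. In the other cluster Hoxa9 (-0.36), Hoxa10 (-0.42) and Hoxa11 (-0.32) fell and Hoxa13 (-0.07) did not pass. Hoxd12 was also among the 3 genes nearest in profile to Lhx9.

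The transcripts named here, which overlap the 8 genes, were low. Gm29100 and Rsrc1, which also overlap these genes, are described above. Gm37644, within Prrx1, went from 0.962 ± 0.158 to 0.593 ± 0.214 CPM (-0.71, adjusted p = 0.0356), and Gm27197, within Lhx2, went from 0.226 ± 0.0674 to 0.466 ± 0.124 CPM (1.03, adjusted p = 0.0124). Others did not pass: Gm26523 in Prrx1 (-0.46, adjusted p = 0.164), Gm29101 in Twist2 (-0.95, adjusted p = 0.0794) and Gm13584 in Lhx2 (-0.11, adjusted p = 0.861).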
